A study of Homo sapiens with 7 samples.

Results

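The HOX genes are the homeobox genes of the 4 clusters HOXA, HOXB, HOXC and HOXD, taken here as the 39 protein-coding genes whose symbols are HOX, a cluster letter and a number, of 20050 protein-coding genes in the RefSeq table. HOXA holds 11 of them, HOXB 10, HOXC 9 and HOXD 9. Peaks of N6-methyladenosine (m6A), a methyl mark on adenosines within mRNA, were assigned to them by the Ensembl ID that each peak carries as its name, each ID being matched to a HOX gene by position and strand. A matching ID was present in the peak lists for 36 of the 39 genes. HOXB1, HOXD1 and HOXD12 had no peak in any list.

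The series mapped m6A in HEK-293T, a human embryonic kidney cell line, by a chemical and an antibody method, and asked how they compare. In m6A-ORL, RNA fragments reacted with NO/O2, then TDO, then the probe BA, and bound to streptavidin beads, from which DTT eluted them, whereas in MeRIP they were captured with an anti-m6A antibody. The captured libraries were m6A-ORL replicate 1 (labelled total RNA), m6A-ORL replicate 2 (labelled polyA RNA) and MeRIP replicates 1 and 2 (both labelled polyA RNA). All 4 came from the same line, and the titles call them treated, while no treatment of the living cells is described. The 3 input samples were not analysed here.

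The protocol text describes oligo(dT) selection for every sample, so the labels disagree on m6A-ORL replicate 1, and RNA type and replicate cannot be told apart within m6A-ORL. Whether replicates were separate cultures is not stated in the labels. The p-values between methods therefore reflect only how far these libraries differ, and that spread may be technical. The lists held 11022 and 7661 m6A-ORL peaks, and 20760 and 20216 MeRIP peaks. Read depth is unknown and RNA levels were not used, so a gene without a peak cannot be told apart from a gene with little RNA. Of 6 genes known to be expressed in HEK-293 cells, both m6A-ORL lists held 2 and both MeRIP lists 5, and of 4 markers of other cell types (ALB, HBB, PTPRC and KRT5) 0 had a peak in any list.

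HOX proteins are transcription factors that bind DNA through a homeodomain and give cells of the embryo their position along the head-to-tail axis. Genes at the same place in different clusters form a paralogous group, numbered in order along the cluster. In embryos low-numbered genes act early and toward the head, and high-numbered genes act late and toward the tail and in the limbs. m6A is written on nascent RNA by a complex that contains METTL3, most often within a short sequence centred on GGAC or a relative of it, and it is found mostly near stop codons and in long exons.

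The clusters also encode microRNAs of the miR-196 and miR-10 families. RefSeq (GRCh38.p14) placed 8 microRNA hairpins within the 4 cluster intervals, and 1 of them, MIR196B at chr7:27169480-27169563 on the minus strand, was overlapped by a peak on its own strand. That peak, from 27169341 to 27169511 with a score of 0.00019, was listed under the HOXA9 ID in MeRIP replicate 1 and in no other list. It ran into the sequence of miR-196b-3p and not into that of miR-196b-5p. In the same list a peak of the antisense gene HOXA10-AS, from 27169339 to 27169486, reached only the end of the hairpin on the other strand. That antisense peak met neither mature sequence. It had a score of 0.00011 and shared 83.2% of the bases of the HOXA9 peak, so the strand of this signal is uncertain. The mature sequences of the overlapped hairpin are shown with that of miR-196a-5p, which has the same seed as miR-196b-5p, and the seed (bases 2 to 8) is in capitals.
hsa-miR-196b-3p: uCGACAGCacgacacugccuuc
hsa-miR-196b-5p: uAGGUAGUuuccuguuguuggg
hsa-miR-196a-5p: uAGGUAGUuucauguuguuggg
miR-196a-5p is encoded in HOXB by MIR196A1 and in HOXC by MIR196A2, and neither of these hairpins was overlapped by a peak. HOXB8 mRNA is a known target of miR-196a.

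Promoter windows of RefSeq (250 bases before and 50 bases after a transcript start) were held for 20 of the 39 HOX genes, in 27 windows. A peak of the same gene covered some of the first 50 transcribed bases of HOXD10, HOXD11 and HOXD13 in both MeRIP lists, of 1 of the 2 HOXA10 windows in MeRIP replicate 1 and of HOXA11 in m6A-ORL replicate 1. The windows of HOXD10 (chr2:176116528-176116827, plus strand), HOXD13 (chr2:176092471-176092770, plus strand) and HOXA11 (chr7:27185183-27185482, minus strand) are shown to place these peaks at the start of the transcript, with the 50 transcribed bases in capitals.
HOXD10: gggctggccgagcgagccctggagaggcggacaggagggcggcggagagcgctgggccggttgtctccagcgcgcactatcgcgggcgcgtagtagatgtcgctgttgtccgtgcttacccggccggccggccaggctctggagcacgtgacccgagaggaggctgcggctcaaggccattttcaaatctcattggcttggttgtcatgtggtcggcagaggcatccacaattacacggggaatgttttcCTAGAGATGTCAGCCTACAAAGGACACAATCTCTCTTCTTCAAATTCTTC
HOXD13: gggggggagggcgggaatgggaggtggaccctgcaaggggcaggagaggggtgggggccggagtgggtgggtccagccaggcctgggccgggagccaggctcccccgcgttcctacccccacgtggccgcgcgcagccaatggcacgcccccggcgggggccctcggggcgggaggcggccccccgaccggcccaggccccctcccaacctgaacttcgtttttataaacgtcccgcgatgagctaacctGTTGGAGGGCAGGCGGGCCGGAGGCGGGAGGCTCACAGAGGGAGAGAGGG
HOXA11: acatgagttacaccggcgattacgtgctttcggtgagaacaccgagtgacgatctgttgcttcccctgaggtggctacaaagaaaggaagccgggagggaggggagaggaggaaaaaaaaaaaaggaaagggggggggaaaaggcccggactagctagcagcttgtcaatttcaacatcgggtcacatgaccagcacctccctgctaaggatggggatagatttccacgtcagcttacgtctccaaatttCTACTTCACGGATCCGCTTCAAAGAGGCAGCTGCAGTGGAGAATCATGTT
The HOXA11 peak, with a score of 3.7e-05, lay under a peak of the antisense gene HOXA11-AS in the same list, with 2.1e-05. In HOXD13 the first transcribed base, at 176092721, was also the first base of a peak in both MeRIP lists. The motif GGAC lay on the transcribed strand within the first 50 bases of HOXD10, the only one of the 27 HOX windows to hold it there. The HOXD10 peak began at 176116803 in both MeRIP lists, just after the motif, so the motif lay outside that peak. Of all 35116 promoter windows, 18.9% held GGAC in those 50 bases on the transcribed strand, 17.6% held it on the other strand (read as GTCC), and 33.5% held it on either. These matches describe the sequence and do not place a methylated base.

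Peaks were listed for about as many HOX genes in the 2 libraries of a method, and for fewer genes by m6A-ORL than by MeRIP. The total RNA and the polyA m6A-ORL lists held peaks for 21 and 20 of the 39 genes, against 34 in each MeRIP list. Over all protein-coding genes 26.9% and 19.9% had a peak in the m6A-ORL lists, and 39.4% and 38.6% in the MeRIP lists. The HOX percentages were 53.8 and 51.3 for m6A-ORL, and 87.2 in each MeRIP list, above that background in every list. Among IDs with a peak in any list, the HOX IDs stood at 58.3% and 55.6% in the m6A-ORL lists and 94.4% in each MeRIP list, beside 53.1%, 33.1%, 72.2% and 71.0% of all 13566 IDs in the same order.

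The mean was 20.5 ± 0.707 genes for m6A-ORL and 34 ± 0 for MeRIP (SD, n = 2 each), a difference of -13.5 genes. The groups did not overlap, and the exact two-sided permutation p was 0.33, the smallest that 3 splits of 4 libraries allow. With every list shortened by score to the length of the shortest, the means were 18 and 25.5 genes, a difference of -7.5. The shares of all genes were not computed at that length.

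Peaks in both m6A-ORL lists were found for 16 HOX genes (41.0%; 12.0% of all protein-coding genes), and peaks in both MeRIP lists for 33 (84.6%; 36.4% of all). In the best-scored 50% of each list these counts were 7 and 27, and the shares of all genes were not computed there. The 16 all had peaks in both MeRIP lists too, so the same 16 genes were in all 4 lists (10.0% of all genes were). A gene in both m6A-ORL lists need not have a peak at the same place in both. For HOXA3, HOXA10, HOXA11, HOXB2, HOXB6, HOXC9 and HOXC13, no m6A-ORL peak overlapped a peak of the other m6A-ORL list. No HOX gene was listed in both m6A-ORL libraries without a MeRIP peak (1.52% of all genes were). Peaks in both MeRIP lists and none by m6A-ORL were found for 10 HOX genes (25.6%; 11.6% of all), which is 27.8% of listed HOX IDs beside 25.1% of all listed IDs and so near that background, and a peak in some list for 36 (92.3%; 49.4% of all).

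**Figure D1:**
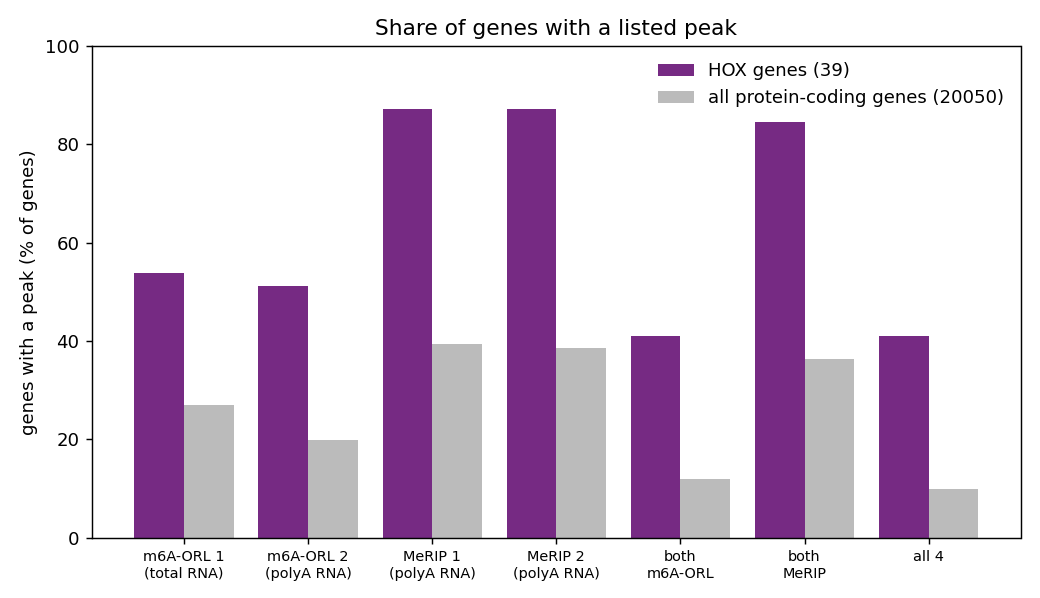
Percentage of genes with at least 1 listed peak in each library, in both libraries of a method and in all 4, for the 39 HOX genes (purple) and all 20050 protein-coding genes (grey). HOX percentages stand above the grey bars in every group of bars, at 53.8 and 51.3 in the m6A-ORL lists and 87.2 in each MeRIP list.

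The lists assigned 31 and 29 peaks to HOX genes by m6A-ORL, against 78 and 75 by MeRIP. The means were 30 ± 1.41 and 76.5 ± 2.12 peaks (SD, n = 2 each), a difference of -46.5 peaks with no overlap between the methods (exact permutation p = 0.33). At equal list length they were 26 and 36.5, a difference of -10.5 peaks, so the size of this difference moved with list length by more than its replicate spread. As a percentage of the whole list, HOX peaks made up 0.281 and 0.379 of the m6A-ORL lists, and 0.376 and 0.371 of the MeRIP lists (exact permutation p = 1). The low value was that of the total RNA library, and the methods overlapped on this measure.

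A HOX peak also covered fewer bases by m6A-ORL. Its median was 149 and 121 bases in the m6A-ORL lists, against 269 and 299 in the MeRIP lists (difference of the means -149 bases, exact permutation p = 0.33). Over all peaks these medians were 142 and 149 bases by m6A-ORL, and 211 in each MeRIP list. In sum, HOX peaks covered 5271 and 4395 bases by m6A-ORL, against 28459 and 26944 by MeRIP. Peaks made of several blocks, as when a peak crosses a splice junction, were 9.68% and 20.7% of HOX peaks by m6A-ORL, against 29.5% and 24.0% by MeRIP, beside 9.88%, 27.8%, 16.9% and 16.3% of all peaks in the same order. HOX genes thus stood above the list in spliced peaks by MeRIP and at or below it by m6A-ORL.

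The 4 clusters differed less from each other than the methods did. HOXA had peaks for 6 and 6 of its 11 genes by m6A-ORL, against 10 and 10 by MeRIP. HOXB had them for 4 and 6 of 10, against 9 and 9. HOXC had them for 7 and 4 of 9, against 8 and 8, and HOXD for 4 and 4 of 9, against 7 and 7. MeRIP thus gave each cluster the same number of genes in both libraries, whereas in HOXB and HOXC the m6A-ORL libraries leaned opposite ways, with more HOXC genes in the total RNA library and more HOXB genes in the polyA library.

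Per gene, HOXA had 0.727 ± 0.129 peaks by m6A-ORL and 2.05 ± 0.193 by MeRIP (SD, n = 2 libraries each, here and below). HOXB had 0.95 ± 0.212 and 2.15 ± 0.212, and HOXC had 0.778 ± 0.314 and 2 ± 0. HOXD had the lowest values by both methods, 0.611 ± 0.0786 and 1.61 ± 0.236, and held 2 of the 3 genes without any peak. Ordered by these values, neighbouring clusters lay within the larger of their replicate SDs, except HOXC and HOXD by MeRIP, and clusters were not tested against each other because genes are not replicates.

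**Figure D2:**
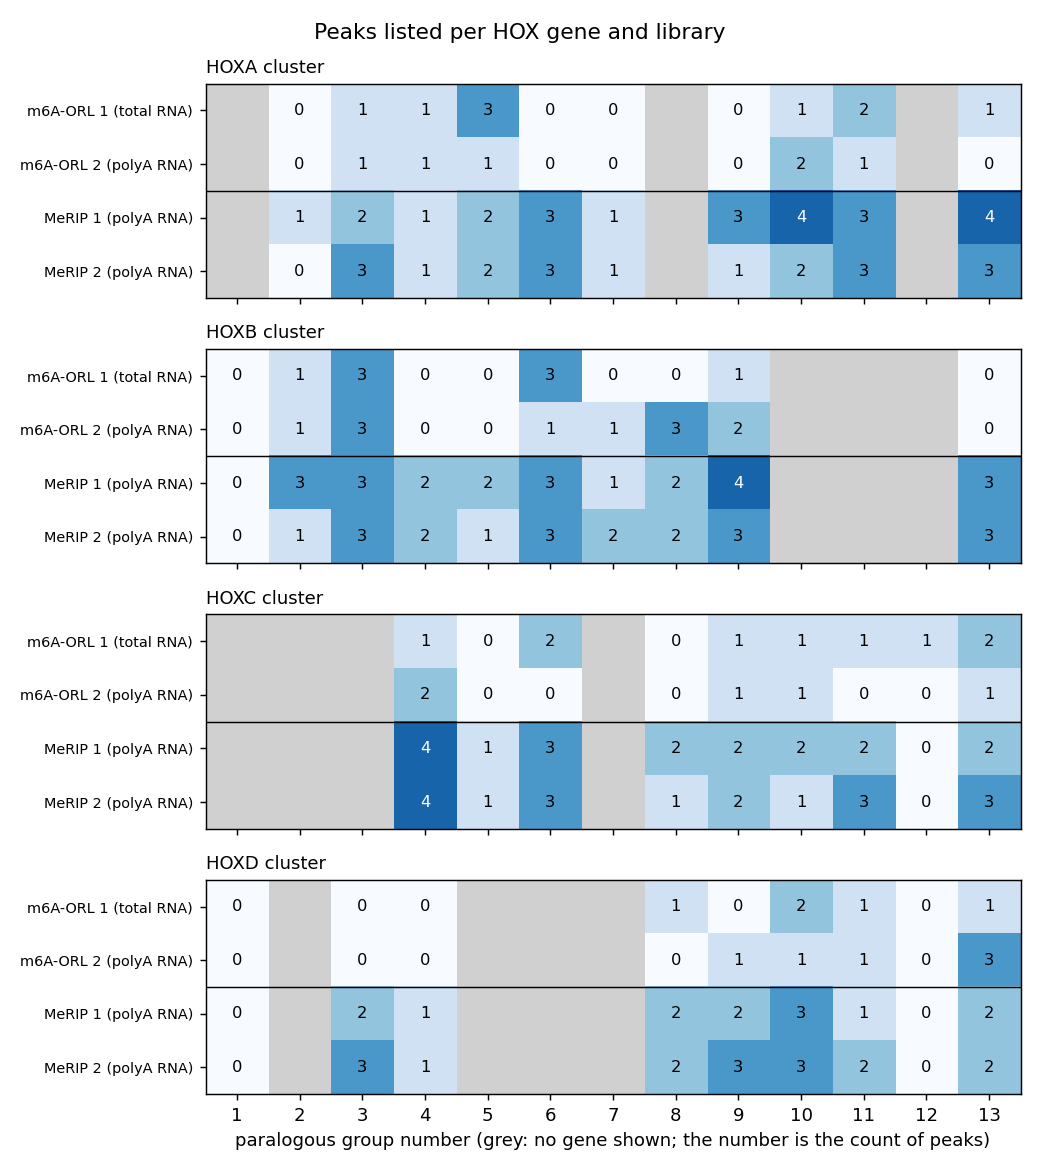
Number of peaks listed for HOX genes (columns, by paralogous group 1 to 13) in each library (rows, m6A-ORL above MeRIP), in 1 panel per cluster, with grey where no gene is shown. The 3 columns without a peak in any library are HOXB1, HOXD1 and HOXD12, and the 10 genes with peaks in both MeRIP rows and in no m6A-ORL row lie in all 4 clusters.

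Summed over the 4 clusters, genes of groups 9 to 13 carried the most peaks by both methods, but the order differed between clusters. The 12 genes of groups 1 to 4 had 7 and 9 m6A-ORL peaks, against 19 and 20 by MeRIP. The 11 genes of groups 5 to 8 had 9 and 6, against 22 and 21. The 16 genes of groups 9 to 13 had 15 and 14, against 37 and 34, and were highest per gene as well, at 0.938 and 0.875 peaks, against 2.31 and 2.13. Genes with peaks in both libraries of a method were 5, 2 and 9 of these groups by m6A-ORL, and 8, 11 and 14 by MeRIP. The middle groups were therefore fully listed by MeRIP, 11 of 11, and least often listed by m6A-ORL.

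Within HOXA, peaks per gene in groups 1 to 4, 5 to 8 and 9 to 13 were 0.5, 1 and 1 in m6A-ORL replicate 1, 0.75, 0.333 and 0.75 in replicate 2, 1, 2 and 3.5 in MeRIP replicate 1, and 1.5, 2 and 2.25 in replicate 2. HOXA values thus increased along the cluster in both MeRIP lists and not in m6A-ORL replicate 2. The last value of each MeRIP list counts 2 overlapping HOXA13 peaks of a single place. The step from 2 to 2.25 in MeRIP replicate 2 rests on these peaks. Within HOXB peaks per gene were 1, 0.75 and 0.5, and 1, 1.25 and 1, by m6A-ORL, against 2, 2 and 3.5, and 1.5, 2 and 3, by MeRIP. HOXC, where groups 1 to 4 are HOXC4 alone, had 1, 0.667 and 1.2, and 2, 0 and 0.6, by m6A-ORL, against 4, 2 and 1.6, and 4, 1.67 and 1.8, by MeRIP, so its MeRIP values were highest at the low-numbered end. HOXD, where groups 5 to 8 are HOXD8 alone, had 0, 1 and 0.8, and 0, 0 and 1.2, by m6A-ORL, against 1, 2 and 1.6, and 1.33, 2 and 2, by MeRIP.

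The number of peaks tracked the group number only weakly over the 39 genes, with Spearman's rho of 0.258 and 0.0864 in the m6A-ORL lists, and 0.253 and 0.224 in the MeRIP lists. These are descriptions across genes of shared libraries and neighbouring loci. Libraries of the same method ranked the genes more alike, with rho of 0.506 for m6A-ORL and 0.694 for MeRIP. The ends of the clusters did not behave alike. In group 1, HOXB1 and HOXD1 had no peak in any list. In group 13, the last genes to be switched on, the 4 genes together had 4 and 4 m6A-ORL peaks, against 11 and 11 by MeRIP. Group 10 was the only group with all of its genes, HOXA10, HOXC10 and HOXD10, in all 4 lists. HOXD10 was in the polyA m6A-ORL list only through a peak outside its span, at a position shared with HOXD11. In group 12, HOXC12 had a single peak, in m6A-ORL replicate 1, and was the only HOX gene listed by m6A-ORL and not by MeRIP.

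In HOXA, the genes in all 4 lists were HOXA3, HOXA4, HOXA5, HOXA10 and HOXA11. HOXA3, needed for the thymus and parathyroid in mouse, had 1 and 1 m6A-ORL peaks, against 2 and 3 by MeRIP. HOXA4 had 1 peak in every list. HOXA5, which acts in lung development in mouse, had 3 and 1, against 2 and 2, and was the only gene of the cluster with more peaks in an m6A-ORL list than in any MeRIP list. HOXA10 and HOXA11, which pattern the female reproductive tract, had the most peaks of the cluster, 9 each over the 4 lists. HOXA10 had 1 and 2 by m6A-ORL, against 4 and 2. HOXA11 had 2 and 1, against 3 and 3.

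HOXA6 had no m6A-ORL peak and 3 and 3 MeRIP peaks. HOXA7 had none by m6A-ORL and 1 and 1 by MeRIP. HOXA9, a gene of blood progenitors that is often active in leukaemia, had none by m6A-ORL and 3 and 1 by MeRIP. These MeRIP peaks were not at 1 place, as none of the 4 HOXA9 peaks overlapped a peak of the other MeRIP list, and 2 of them lay upstream of the HOXA9 span. When all RefSeq genes competed for the IDs, the HOXA9 ID went instead to a readthrough gene that joins HOXA10 and HOXA9, so its values are uncertain. HOXA13, a limb and urogenital gene, was listed in the total RNA library alone by m6A-ORL (1 and 0, against 4 and 3). In each MeRIP list 2 of the HOXA13 peaks overlapped each other at a single place. HOXA2, which acts in the second branchial arch, had a single peak, in MeRIP replicate 1.

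In HOXB, the genes in all 4 lists were HOXB2, HOXB3, HOXB6 and HOXB9. HOXB2 had 1 and 1 m6A-ORL peaks, against 3 and 1 by MeRIP. HOXB3, a hindbrain gene, had 3 peaks in every list, and its total of 12 was the highest of all HOX genes. HOXB6 had 3 and 1, against 3 and 3, and HOXB9 had 1 and 2, against 4 and 3. Among the listed genes of the cluster, HOXB3 alone had the same count in every library.

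HOXB4, known for expanding blood stem cells, had no m6A-ORL peak and 2 and 2 MeRIP peaks. HOXB5 had none by m6A-ORL and 2 and 1 by MeRIP. HOXB13, a prostate transcription factor that lies apart from the rest of its cluster, had none by m6A-ORL and 3 and 3 by MeRIP. Its best MeRIP scores, 2e-48 and 6.3e-59, were in the best 13.8% and 11.8% of their lists, and it still had no m6A-ORL peak. HOXB7 and HOXB8 had m6A-ORL peaks in the polyA library only, 0 and 1 for HOXB7 and 0 and 3 for HOXB8, against 1 and 2, and 2 and 2, by MeRIP. The 2 HOXB8 peaks of each MeRIP list overlapped each other.

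In HOXC, the genes in all 4 lists were HOXC4, HOXC9, HOXC10 and HOXC13. HOXC4 had 1 and 2 m6A-ORL peaks, against 4 and 4 by MeRIP, and its total of 11 was the highest of the cluster. HOXC9, which sets thoracic motor neuron identity in mouse, had 1 and 1, against 2 and 2. HOXC10 had 1 and 1, against 2 and 1. HOXC13, which controls hair keratin genes, had 2 and 1, against 2 and 3, and a total of 8 that it shared with HOXC6.

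HOXC6 was listed in the total RNA m6A-ORL library and not in the polyA one, with 2 and 0 peaks, against 3 and 3 by MeRIP. HOXC11 showed the same split, 1 and 0 against 2 and 3, although its best MeRIP scores of 1e-121 and 1e-126 ranked in the best 5.32% and 5.34% of the lists. HOXC5 had no m6A-ORL peak and 1 and 1 by MeRIP, and HOXC8 none and 2 and 1. In the stretch from HOXC9 to HOXC13, all 5 genes were listed in the total RNA library and 3 in the polyA library. Their best peaks in the total RNA library ranked low. They stood at 98.6% (HOXC9), 76.4% (HOXC10), 88.0% (HOXC11), 61.1% (HOXC12) and 50% (HOXC13) of the list from the top. In the polyA library HOXC9, HOXC10 and HOXC13 stood at 60.8%, 38.8% and 75.9%.

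In HOXD, the genes in all 4 lists lay toward the limb end of the cluster, HOXD10, HOXD11 and HOXD13, with HOXD12, which had no peak, between HOXD11 and HOXD13. HOXD13, in which polyalanine expansions cause synpolydactyly, had 1 and 3 m6A-ORL peaks, against 2 and 2 by MeRIP. HOXD10 had 2 and 1, against 3 and 3. HOXD11, which with its paralogs is needed for the kidney and forearm in mouse, had 1 and 1, against 1 and 2. At the other end, HOXD3 had no m6A-ORL peak and 2 and 3 MeRIP peaks, and HOXD4 none and 1 and 1. HOXD8 had 1 and 0, against 2 and 2, and HOXD9 had 0 and 1, against 2 and 3.

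The best-scored HOX peaks of every list were in this HOXD stretch. The deposited score has the range of a p-value or q-value and was read with lower as better, to rank peaks only within a list. HOXD11 had its best score at 2.5e-32 and 2e-17 by m6A-ORL, in the best 3.71% and 3.35% of the lists. By MeRIP its best score was listed as 0 in both lists, which is read as too small to be written. HOXD13 followed with 2e-22 and 2e-13 by m6A-ORL, in the best 5.40% and 6.02%, and in the best 1.65% and 2.07% by MeRIP.

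Outside HOXD, HOXB3 had 5e-21 and 1e-11 by m6A-ORL (best 5.90% and 8.33%), against 7.9e-45 and 4e-53 by MeRIP (best 14.8% and 12.8%). These percentages come from lists of different lengths and are not a comparison of the methods. HOXB8 was in the best 7.05% and 7.16% by MeRIP and in the best 41.8% of the polyA m6A-ORL list. The median HOX peak stood at 50% and 60.8% of the m6A-ORL lists from the top, and at 37.4% and 38.6% of the MeRIP lists.

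Where the methods listed the same HOX gene, they mostly listed the same place. Of the HOX peaks of m6A-ORL replicate 1, 87.1% and 83.9% shared at least 1 base on the same strand with MeRIP replicates 1 and 2. Of those of m6A-ORL replicate 2, 82.8% did so with each MeRIP list. The mean was 84.1% ± 2.05 over the 4 pairs of lists, beside 48.4% ± 4.14 for all peaks of the m6A-ORL lists (52.9% and 50.9% in replicate 1, 45.8% and 44.1% in replicate 2). These pairs share libraries, so the SD describes them and is no error of a mean. Part of the gap went with gene listing, since among IDs present in both lists of a pair the means were 86.3% ± 2.98 for HOX peaks and 63.1% ± 8.39 for all (71.1%, 69.6%, 56.4% and 55.4% in the same order of pairs). At equal list length the HOX mean was 64.7%, and 74.9% when at least 50% of an m6A-ORL peak had to be covered. Values for all peaks were not computed under these settings.

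In total 28 of 31 and 27 of 29 HOX peaks of the m6A-ORL lists met a peak of either MeRIP list (54.7% and 47.8% of all peaks did). In the other direction m6A-ORL overlapped 31.0% ± 3.43 of HOX peaks of the MeRIP lists, beside 19.9% ± 6.03 of all. Over all peaks, m6A-ORL replicate 1 overlapped 25.3% and 25.0% of MeRIP replicates 1 and 2, and m6A-ORL replicate 2 overlapped 14.8% and 14.5%. The m6A-ORL libraries shared 10 of 31 and 10 of 29 HOX peaks with each other (32.3% and 34.5%, beside 13.8% and 19.6% of all). These gaps too went partly with gene listing. Among IDs in both lists, the m6A-ORL libraries shared 40.0% and 43.5% of HOX peaks, beside 31.3% and 30.7% of all. Likewise, m6A-ORL overlapped a mean of 48.9% of HOX peaks of the MeRIP lists, beside 40.1% of all. The MeRIP libraries shared 84.6% and 89.3%, close to the 83.6% and 86.0% of all their peaks. HOX peaks of m6A-ORL were therefore overlapped more often by MeRIP than by the other replicate of their own method. The same held for all peaks of the m6A-ORL lists, at means of 48.4% and 16.7%. The MeRIP lists are longer and their HOX peaks cover more bases, and the m6A-ORL libraries differ in labelled RNA type. What these add to the difference was not tested.

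**Figure D3:**
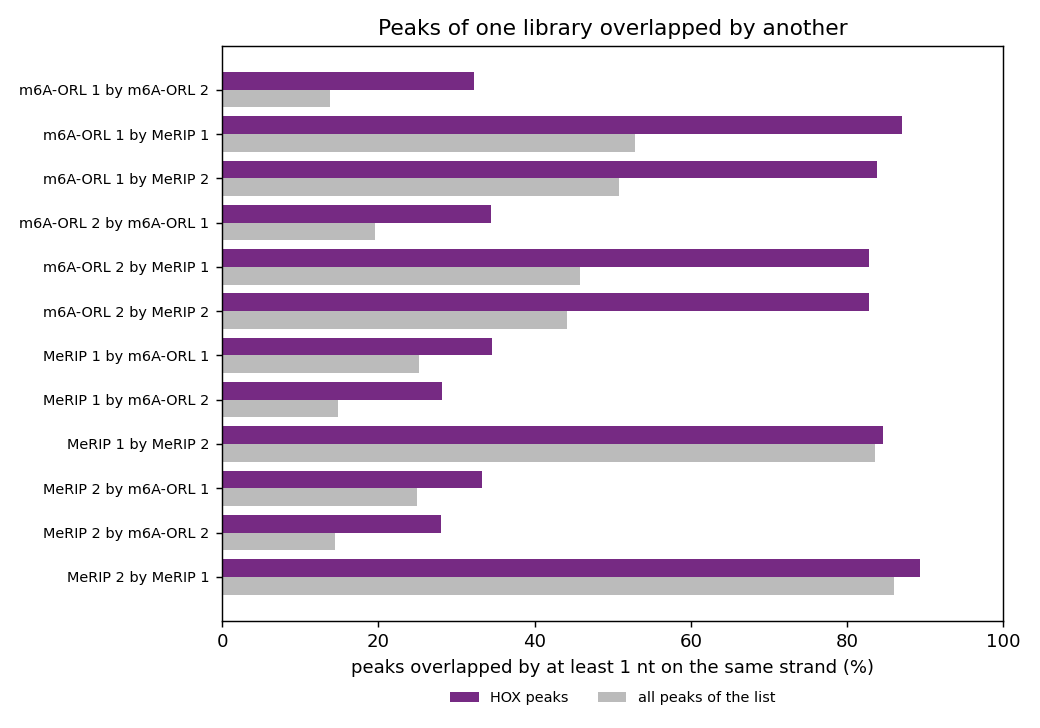
Percentage of peaks of the library named first that share at least 1 base on the same strand with a peak of the library named after it, for HOX peaks (purple) and all peaks of the list (grey). The 4 bars of m6A-ORL peaks by MeRIP lie between 82.8% and 87.1% for HOX, whereas those of m6A-ORL by m6A-ORL lie at 32.3% and 34.5%.

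Merging overlapping peaks of a gene gave 86 HOX sites, of which 20 were in 1 list, 35 in 2, 18 in 3 and 13 in all 4. Both MeRIP lists held 61 sites, and 30 of these were in no m6A-ORL list, 18 in 1 and the other 13 in both. Only 5 sites were in m6A-ORL alone, and none of them was in both m6A-ORL lists. At least 1 base was common to all 4 lists in 9 of the 13 sites, and at least 30 bases in 7. The counts of 13, 9 and 7 each hold the same HOXD place under both HOXD10 and HOXD11. Sites of HOXB3 and HOXB6 that share bases are both among the 18 sites in 3 lists. Sites of HOXC4 and HOXC6 that share bases are both among the 35 sites in 2 lists and the 30 in no m6A-ORL list. The totals of 86 and 61 hold all of these.

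The widest of these common stretches lay in HOXD11 (chr2:176108982-176109398, 417 bases, hg38, plus strand), within the gene span. In HOXD13, 239 bases were common (chr2:176094513-176094751, plus strand), 1282 and 1312 bases before its 3' end by the middle of the m6A-ORL peaks. HOXA5 shared 179 bases (chr7:27143207-27143385, minus strand) near the 5' end of the transcript. HOXC10 shared 121 bases (chr12:53989320-53989440, plus strand) toward its 3' end. HOXB9 and HOXC4 shared 31 bases each. The sites common to all lists thus did not lie at 1 fixed part of the genes. Exons were not held in the RefSeq table, so coding sequence and UTRs were not told apart.

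Along the genomic span, HOX peaks lay mostly in the 3' part, taken as the stretch beyond 66.7% of the span in the direction of transcription. Of peaks within a span, 17 of 29 and 15 of 28 by m6A-ORL had their middle there (58.6% and 53.6%), against 39 of 73 and 41 of 70 by MeRIP (53.4% and 58.6%). Over all protein-coding genes it was 56.3%, 51.7%, 60.3% and 60.2% in the same order. The methods overlapped, with means of 56.1% ± 3.57 and 56.0% ± 3.64 (SD, n = 2 each) and a difference of 0.098 percentage points (exact permutation p = 0.67). The sign of this difference turned with the library left out and under other settings. The 5' part, up to 33.3% of the span, held 31.0% and 28.6% of HOX peaks by m6A-ORL, against 27.4% and 24.3% by MeRIP (all genes 27.8%, 29.6%, 24.1% and 24.3%). The span of a gene runs from its most distant start, so a peak at a later start can count in the 3' part, as the HOXD13 MeRIP peaks that begin at 176092721 do, at 69.3% and 69.5% of the span. HOX genes have few exons, and where those exons lie was not held in the table, so the shares cannot be set against exon length.

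**Figure D4:**
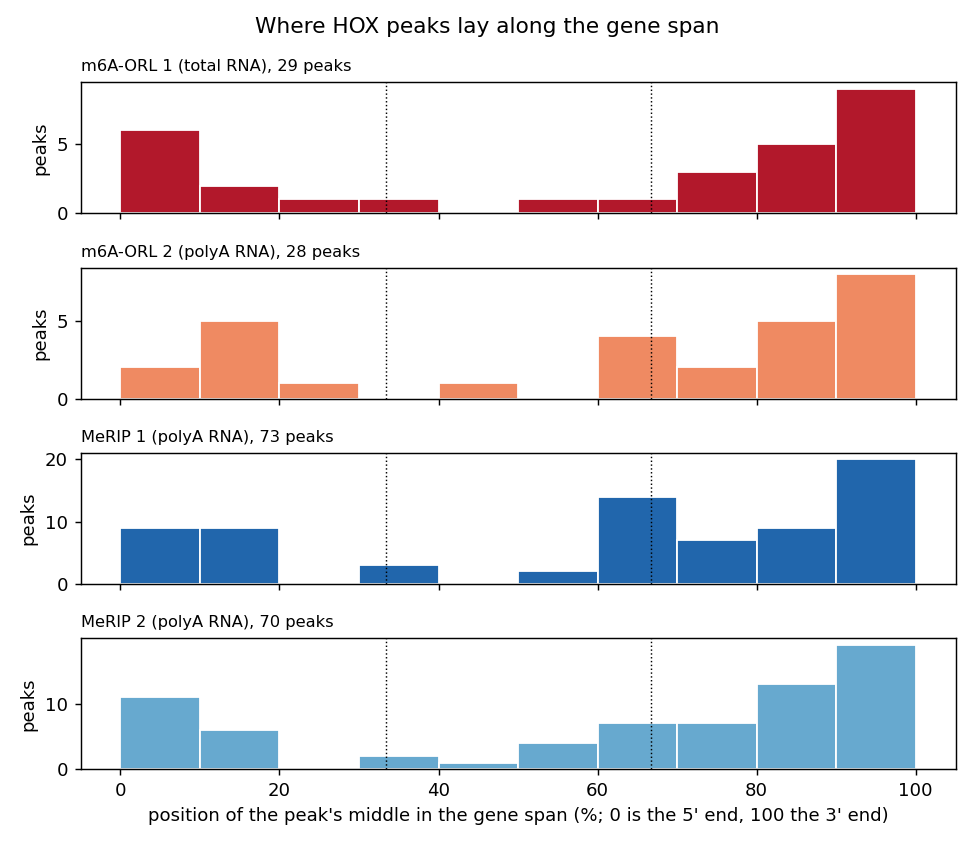
Number of HOX peaks by the position of their middle along the gene span (0% is the 5' end and 100% the 3' end, in steps of 10%; dotted lines mark 33.3% and 66.7%), in 1 panel per library, m6A-ORL above MeRIP and with each panel's own count axis. Peaks gather at both ends in every library, with 53.4% to 58.6% of them beyond 66.7% of the span.

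Neighbouring HOX genes share transcribed sequence, and some peaks were listed under several IDs. Of 213 HOX peaks, 22 shared bases with a same-strand peak of another ID, and for 18 of them that was another HOX ID. The HOXD10 ID carried a copy of the HOXD11 peak in every list, with scores of 6.3e-31 and 2e-17 by m6A-ORL, beside 2.5e-32 and 2e-17 for HOXD11. By MeRIP both were listed as 0. This left HOXD10 with 1 and 0 m6A-ORL peaks, against 2 and 2 by MeRIP, within its own span, so its place among the genes in all 4 lists rests on the shared position, and 15 HOX genes were in both m6A-ORL lists when only peaks inside the RefSeq span counted. HOXB3 and HOXB6 shared a position from 48604573 to 48604912 on chromosome 17, upstream of the HOXB3 span, in m6A-ORL replicate 1 and both MeRIP lists. HOXC4 and HOXC6, whose RefSeq spans start at the same base, shared the first block of a spliced peak in both MeRIP lists. Counting overlapping HOX peaks of a list once gave 29 and 28 HOX positions by m6A-ORL, against 73 and 70 by MeRIP. In the MeRIP lists this also merged overlapping peaks listed under the same ID, in HOXA13 and HOXB8.

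The clusters also hold antisense noncoding RNAs, and some HOX peaks lay under a peak of the opposite strand in the same list. This held for 3 of 31 and 5 of 29 HOX peaks by m6A-ORL (9.68% and 17.2%; all peaks 7.49% and 7.05%), and for 11 of 78 and 9 of 75 by MeRIP (14.1% and 12.0%; all peaks 11.1% and 11.0%). Of these 28 pairs, 13 had scores within 10-fold of each other. In MeRIP replicates 1 and 2, the HOXA11 peak at its 5' end had scores of 4e-14 and 1.3e-12, and the HOXA11-AS peak over it had the same scores. HOXA10 had 1.6e-29 and 7.9e-40, and HOXA10-AS had 1.6e-29 and 5e-40. HOXA7 had 2.5e-50 and 1e-48, and HOXA-AS3 had 1e-49 and 1.3e-47. In m6A-ORL replicate 1 the best HOXB3 peak had 5e-21, and HOXB-AS1 had 6.3e-21.

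These were the only MeRIP peaks of HOXA7, and the HOXB3 peak was its best by m6A-ORL in that library. The sources used here do not say whether the authors counted reads by strand, so peaks of a HOX gene and of its antisense RNA cannot be told apart there. Without the overlapped peaks, the mean number of HOX genes with a peak was 19.5 by m6A-ORL and 33 by MeRIP, and 14 and 32 genes had peaks in both libraries of a method. The shares of all genes without such peaks were not computed. HOXB6 and HOXB-AS3 were further apart, as the HOXB6 peak had 7.9e-59 and 1.3e-84 by MeRIP and the HOXB-AS3 peak 1.3e-38 and 6.3e-45.

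**Figure D5:**
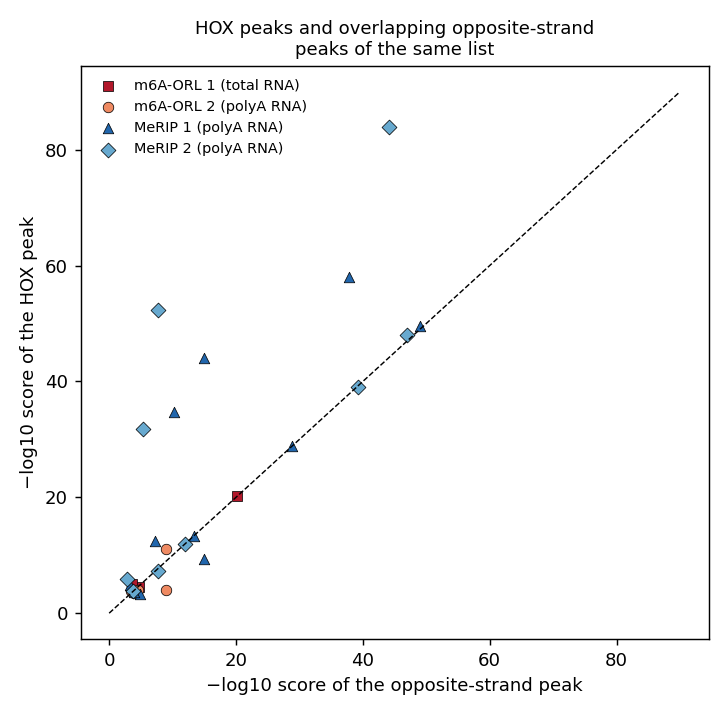
Score of each HOX peak (vertical axis, −log10) against the score of an overlapping opposite-strand peak of the same list (horizontal axis, −log10), for 28 pairs, by library; the dashed line marks equal scores. Pairs of HOXA7, HOXA10 and HOXA11 lie on or near the line, and several MeRIP pairs, such as HOXB6 with HOXB-AS3, lie above it with the better score on the HOX strand.

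Genes known to work with or on the clusters were described by the same counts. Polycomb proteins silence HOX genes, and Trithorax proteins keep them active. Of 18 such genes, both m6A-ORL lists held 7 and both MeRIP lists 12, with 6 in all 4 (12.0%, 36.4% and 10.0% of all protein-coding genes). KMT2A, the Trithorax methyltransferase also called MLL, had 6 and 1 m6A-ORL peaks, against 11 and 10 by MeRIP. Its partner MEN1 had 1 and 3, against 4 and 3. The Polycomb reader genes CBX2 and CBX6 had 2 and 5, and 3 and 5, by m6A-ORL, against 3 and 3 each by MeRIP. CBX8 had 2 and 1, against 4 and 3. CBX2 and CBX6 thus had more peaks in the polyA m6A-ORL list than in any other, as did HOXB8 and HOXD13 among HOX genes.

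The PBX, MEIS and PKNOX genes encode homeodomain proteins that bind DNA together with HOX proteins. Of these 9 cofactor genes, both m6A-ORL lists held 0 and both MeRIP lists 7, beside 12.0% and 36.4% of all protein-coding genes. Of 13 other homeobox genes of the Antennapedia class, 1 had peaks in both m6A-ORL lists and 5 in both MeRIP lists. At these list sizes the m6A-ORL shares lie near the 12.0% of all genes, and the single gene in all 4 lists was CDX2, a regulator of HOX genes and of the gut (3 and 2, against 2 and 2). Of 18 noncoding RNA genes of the clusters, both m6A-ORL lists held 3 and both MeRIP lists 9. Over all protein-coding genes these shares were 12.0% and 36.4%. The MeRIP count may be low, as some opposite-strand IDs of the clusters had MeRIP peaks and matched no RefSeq gene. Such an ID in HOXC had 3 and 2 MeRIP peaks, and another in HOXD had 1 and 1. HOXA10-AS had 1 and 1, against 3 and 2, HOXA11-AS had 1 and 1, against 4 and 4, and HOXB-AS1 had 1 peak in every list. Among these lists the Polycomb and Trithorax genes, with 7 of 18 in both m6A-ORL libraries, came closest to the 16 of 39 HOX genes.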

How the data were processed

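Peak lists of 4 captured HEK-293T libraries were used as deposited, 2 by m6A-ORL and 2 by MeRIP. Per the file headers each list has 12 BED columns that give position, strand, blocks, an Ensembl ID and a score. The score deposited by the authors has the range of a p-value or q-value, but the sources used here do not say which it is, how peaks were called or against which input. Per the submitters' processing notes, Trim Galore, STAR, HOMER and hg38 were used, with no version or role stated. No read depth is known, and precision is limited by the number of peaks.

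The RefSeq table (GRCh38.p14, the same build) carries no Ensembl IDs, so 0 matched by ID. IDs were matched one-to-one to genes by covered bases on the same strand, with at least 33.3% of an ID's bases inside the span. Of 13566 IDs 12374 matched, 9912 of them to protein-coding genes, and 35 of 36 HOX matches were the same when all genes competed. Peaks were called shared at an overlap of at least 1 nt. Method means were compared by exact two-sided permutation over 3 splits. Python 3.11.15, pandas 2.3.3, NumPy 2.4.6 and SciPy 1.17.1 were used. The overlap and matching steps were tested on shifted copies of listed peaks and on invented IDs placed in HOX spans.

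The members and gene lists were chosen with earlier results of these data known. Per-library values are given for genes in all 4 lists, for the 2 genes of each cluster with the most peaks, and for genes in both libraries of exactly 1 method; other genes named were chosen after their values were seen. Alternatives were another assignment, the best-scored 50% of each list, equal list length, a longer span, each library left out and a replicate block. Some items are not reported here.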

Additional observations from a re-analysis of the deposited data

How the results depend on the processing

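The m6A-ORL minus MeRIP differences in HOX genes (-13.5) and in HOX peaks (-46.5) kept their direction under all 11 and 12 alternatives, with ranges of -17.5 to -7.5 genes and -48 to -10.5 peaks. The replicate block, counted among these alternatives, changes only the p-value and so could not turn the direction. Leaving out each library gave -14 to -13 genes and -48 to -45 peaks. The difference in the 3' part of the span (0.098 points) turned to -0.267 when peaks went to the narrowest span, to -3.60 at equal list length (7661 peaks) and to -1.65 when that part began at 75% of the span, and leaving out libraries gave -2.48 to 2.67. It turned to -2.43 without m6A-ORL replicate 1 and to -2.48 without MeRIP replicate 1. The overlap of HOX m6A-ORL peaks by MeRIP (84.1%) was 78.7% in the best-scored 50% of each list, 64.7% at equal list length, 74.9% when at least 50% of a peak had to be covered, and 82.8% to 85.5% with libraries left out. HOX genes in both m6A-ORL lists were 7 in place of 16 in the best-scored 50%. With libraries left out this count was 16 to 21, where 20 and 21 are genes in the single m6A-ORL list that remained. The MeRIP count (33) ranged from 25 to 34, where 34 likewise counts a single list. The causes were not tested, and values over all genes or all peaks were not computed under these alternatives. Fits without peaks overlapped on the opposite strand, with peaks inside the span only or with positions counted once were chosen after seeing the data. With the replicate block the values were -13.5 genes, -46.5 peaks and 0.098 points, and the smallest p was 0.5. The labels do not pair the replicate numbers, and the differences between replicates correlated at -0.00466 between methods over 39 HOX genes, as a description.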
